A study of Mus musculus with 6 samples.

Results

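The ADAM, ADAMTS and ADAMTS-like genes were examined in thrombosed veins of mice bred to lack STING in myeloid cells and of their floxed controls. Members were all genes in the count tables whose symbol starts with Adam, Adamts or Adamtsl followed by a digit. The rule took 29 of 16533 genes: 12 ADAM genes, 12 ADAMTS genes and 5 ADAMTS-like genes. All 29 had counts in every library and passed the filter on low counts, the lowest member count being 43 reads in a library. Another 28 protein-coding family genes of the reference annotation had no row in the tables and were not analysed here. They are 21 ADAM genes and 7 ADAMTS genes, among them Adamts13, whose product cleaves von Willebrand factor.

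The mKO mice were Stingf/f Lyzm-Cre+/-, which carry the loxP-flanked Sting gene together with 1 copy of Cre in the Lyz2 locus. Control mice were Stingf/f and carry the same flanked gene without Cre. In both groups the inferior vena cava was tied off 24 h before collection, so that stasis let a clot form as in deep vein thrombosis. Each library came from 3 thrombi pooled with the vein around them, with 3 pools per group, and the labels do not give age. Lyz2 is active in neutrophils, monocytes and macrophages, so vein wall cells, platelets and lymphocytes of mKO mice keep STING. In such mixed tissue, fewer cells of a type and less RNA per cell cannot be told apart.

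ADAM proteins are membrane-anchored metalloproteases. They cut ("shed") the outer part of cytokines, growth factors, adhesion molecules and receptors off the cell surface, and ADAM17 releases soluble TNF. ADAMTS proteins are their secreted relatives, with thrombospondin repeats that bind the extracellular matrix, and cleave proteoglycans, procollagens or other matrix proteins. ADAMTS-like proteins share those repeats but have no protease domain, and several bind fibrillin microfibrils.

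The feature that separates proteases from non-proteases in the family is the zinc-binding site, and it is shown here for the members. The role classes below were set from a list before this search and do not rest on it. The site reads histidine, glutamate, any pair, histidine, any pair, a middle residue, any pair, histidine. It was searched in the longest coding sequence of each gene in GENCODE M21 (build GRCm38), allowing glycine, asparagine or serine in the middle. It was found in 21 of 29 members (72.4%), against 46 of 13902 genes of the tables with a coding sequence (0.331%). Glycine stood in the middle in 16 members, asparagine in 4 and serine in 1, Adamts8. Each line gives 51 bases of coding strand, 5′ to 3′, with the codons of histidine and glutamate, the middle histidine, the middle residue and the last histidine in capitals.
Adam17: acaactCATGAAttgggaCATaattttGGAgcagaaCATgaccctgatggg
Adam8: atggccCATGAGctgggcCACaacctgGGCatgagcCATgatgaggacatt
Adam12: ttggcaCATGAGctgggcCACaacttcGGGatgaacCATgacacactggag
Adam10: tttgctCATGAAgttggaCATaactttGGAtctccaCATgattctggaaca
Adamts5: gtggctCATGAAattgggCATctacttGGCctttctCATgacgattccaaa
Adamts1: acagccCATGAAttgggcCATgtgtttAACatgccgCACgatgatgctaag
Adamts4: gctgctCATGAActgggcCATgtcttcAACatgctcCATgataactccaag
Adamts8: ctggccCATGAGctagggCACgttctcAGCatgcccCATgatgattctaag
Adamts2: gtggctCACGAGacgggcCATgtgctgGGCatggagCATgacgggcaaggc
The Adam17 stretch lies in exon 12 at chr12:21336720-21336770, the Adam8 stretch in exon 11 at chr7:139987881-139987931 and the Adam12 stretch in exon 11 at chr7:133961146-133961196, all on the minus strand of GRCm38. Those of Adam10, Adamts5, Adamts1, Adamts4, Adamts8 and Adamts2 run across an exon junction. No match was found in 8 members, Adam11, Adam22, Adam23 and the 5 ADAMTS-like genes.

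The libraries held 158579864 to 180068483 counts, and CPM below is the usual unit of counts relative to the library total, here scaled by TMM. Members added up to 1638, 2016 and 1736 CPM in mKO libraries 1 to 3, and to 1859, 1387 and 1629 CPM in control libraries 1 to 3. The targeted gene Sting1 had 22.7, 21.4 and 28.7 CPM in mKO and 25.1, 31.4 and 27.1 CPM in control, and its count covers all cells and exons. Its groups overlapped, and its log2 fold change, mKO over control, was -0.20 ± 0.14 (SE). These counts do not show the deletion in myeloid cells. Lyz2, the locus that carries Cre, had 643, 1149 and 1153 CPM in mKO and 1430, 1759 and 1885 CPM in control. Some libraries stood apart. Summed over 4 markers, skeletal muscle transcript reached 151 CPM in mKO library 3 and 1.18 to 39.7 CPM in the other libraries. Over 7 markers, smooth muscle transcript reached 3060 CPM in control library 2 and 679.7 to 1486 CPM in the others. All 7 smooth muscle markers, 8 endothelial markers and 6 neutrophil markers had counts. At this depth the presence of counts cannot test the tissue label.

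Adam8 led the family. Its product is a leukocyte sheddase, and it held 50.7% of the family's CPM in mKO and 40.5% in control. Per kilobase of annotated exon it had 197 CPM per kb in mKO and 142 CPM per kb in control. Next came Adamtsl4, a fibrillin-binding ADAMTS-like protein, with 38.1 CPM per kb in mKO and 52.8 CPM per kb in control. Adam10, Adam9, Adam19 and Adam15 followed between 13.1 and 24.1 CPM per kb in either group, and Adamts1 and Adam17 between 8.60 and 14.3 CPM per kb. Per kb, Adam8 lay above Adamtsl4 in every library. The libraries of Adam9 and Adam19 overlapped in both groups, whereas those of Adam10 lay above those of Adam9 in mKO and overlapped them in control. Adam15 lay above Adamts1 in every mKO library and overlapped it in control. The lowest was Adamtsl2, with 0.0423 CPM per kb in mKO and 0.0825 CPM per kb in control.

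**Figure D1:**
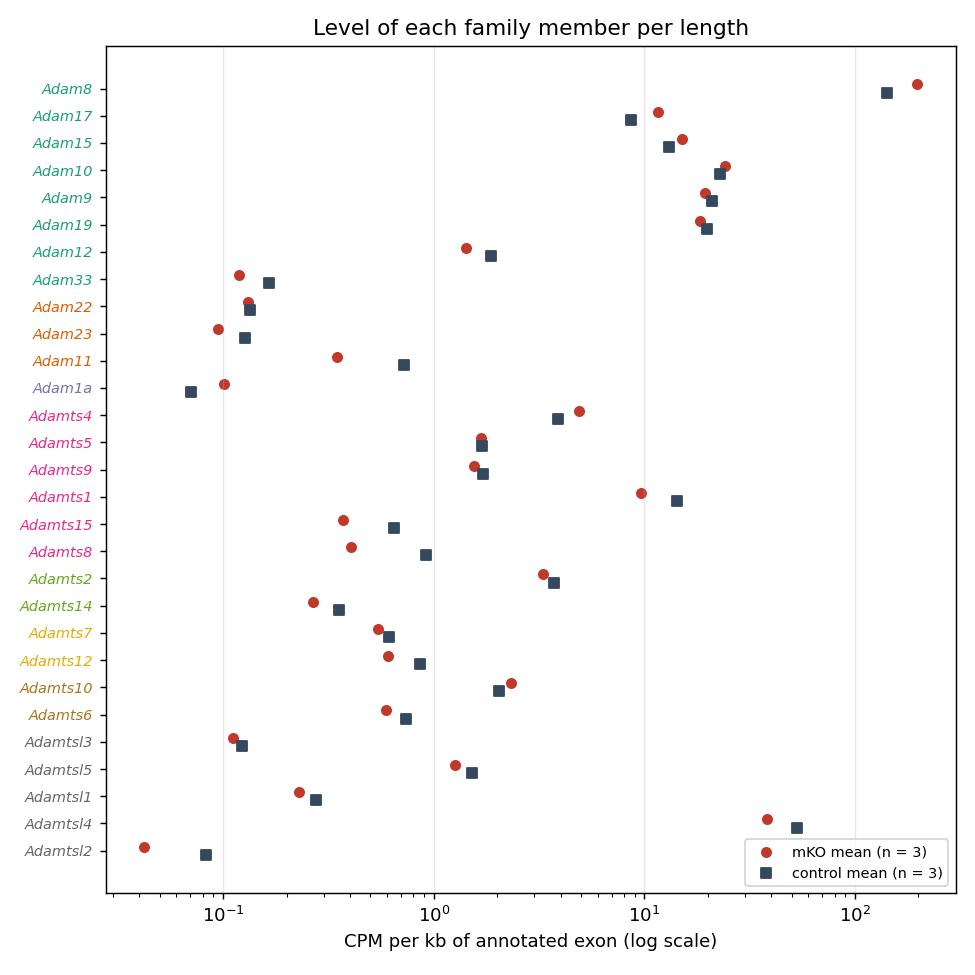
Mean level of each of the 29 members in CPM per kb of annotated exon (log axis), mKO as circles and control as squares (n = 3 each), with gene names coloured by role class. Adam8 stands at 197 CPM per kb in mKO and 142 CPM per kb in control, above every other member.

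Comparing mKO with control asks how gene expression in the thrombosed vein differs between mice bred to lack myeloid STING and their floxed controls. Only mKO mice carry Cre, and no group carries Cre without the flanked Sting gene. Effects of STING loss, of Cre itself and of its insertion into the locus that carries it therefore cannot be told apart. By edgeR quasi-likelihood, 0 of 29 members and 0 of 16523 genes (0%) had an adjusted p under 0.05; the smallest among members was 0.274, for Adam17. At an unadjusted p under 0.05, 1 member was higher in mKO (3.45%) against 5.6% of all genes, and 4 were lower (13.8%) against 6.26%. DESeq2, the other count test, called 1 member, Adam17, which was higher; over all genes it called 2.8%, with 1.47% higher and 1.33% lower. The median log2 fold change was -0.17 over the members and -0.03 over all genes tested. It lay below 0 for 22 of 29 members (75.9%) and for 54.1% of all genes. The 3 mKO libraries all lay above the 3 control libraries for 3 members (10.3%), against 8.76% of all genes, and all below for 5 members (17.2%), against 9.39%.

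**Figure D2:**
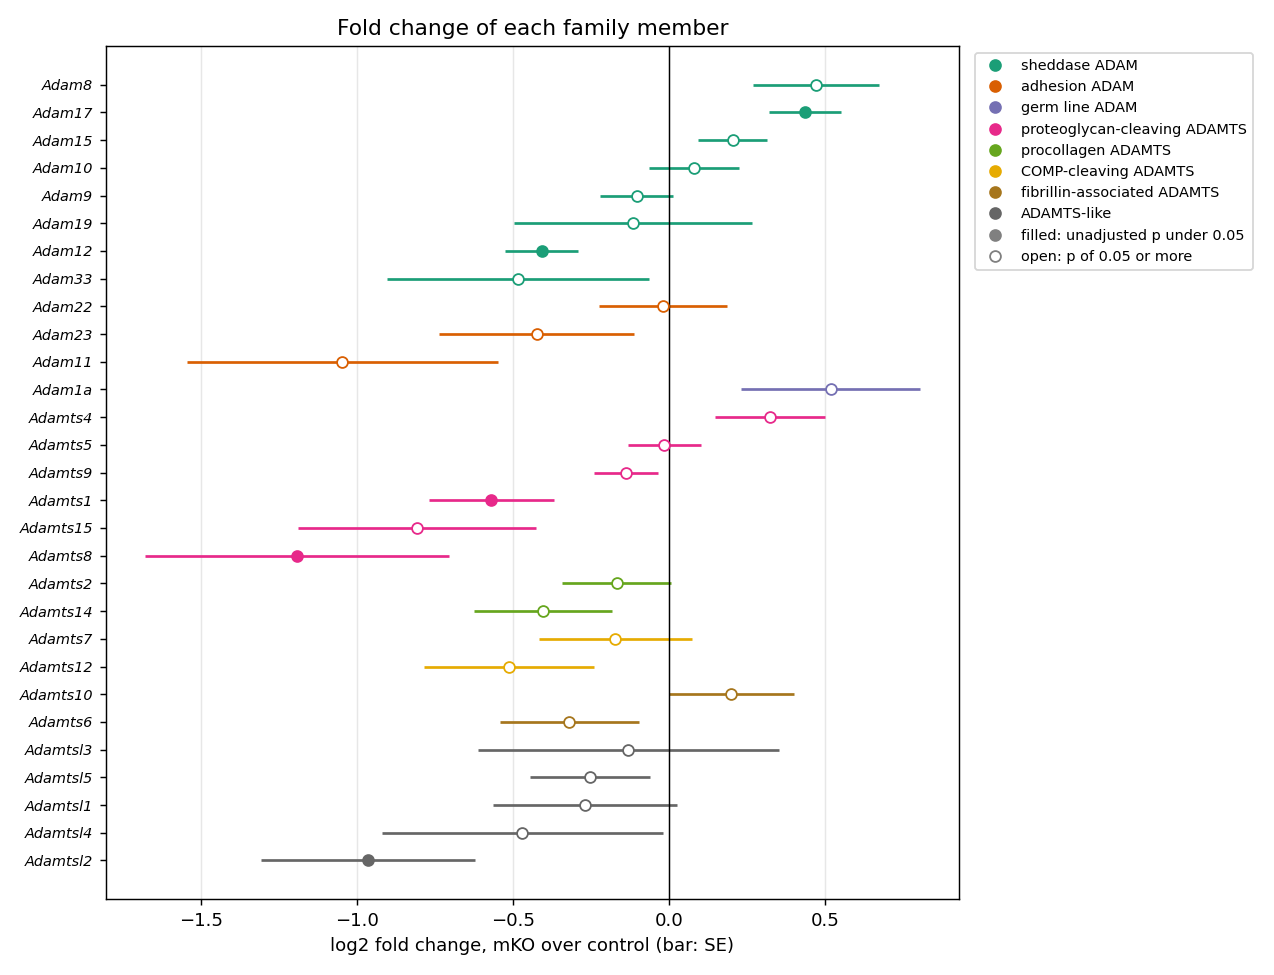
Log2 fold change, mKO over control, of the 29 members with SE bars, grouped and coloured by role class; filled points have an unadjusted p under 0.05 and open points do not. Adam17 is the filled point above 0, and Adam12, Adamts1, Adamts8 and Adamtsl2 are the filled points below 0.

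The 8 ADAM genes with a sheddase role split evenly, 4 above 0 and 4 below, with a median log2 fold change of -0.01. Adam17, the TNF-converting enzyme, had 74.7, 89.3 and 85.8 CPM in mKO and 64.1, 59.2 and 61.3 CPM in control. Every mKO library lay above every control library. The means were 83.3 ± 7.61 CPM in mKO and 61.5 ± 2.47 CPM in control (SD, n = 3 each), a ratio of 1.35 in the fit. This gave a log2 fold change of 0.44 ± 0.12 (SE), at which the adjusted p was 0.274 in edgeR's quasi-likelihood test and 0.0198 in DESeq2. Adam17 overlaps Iah1 on the opposite strand in the annotation, and the strand setting of the counts is not given; for Iah1 the log2 fold change was 0.00051 ± 0.10 (SE).

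Adam8 had 722, 1056 and 957 CPM in mKO and 728, 543 and 705 CPM in control. Libraries 2 and 3 of mKO stood above all controls, while mKO library 1 lay inside the control range. This gave a log2 fold change of 0.47 ± 0.20 (SE), at which the adjusted p was 0.421 in edgeR's quasi-likelihood test and 0.209 in DESeq2. The summed CPM of the 6 neutrophil markers was 14936, 17682 and 12808 in mKO and 14546, 9110 and 11915 in control, with overlap between the groups. Control library 2 was thus lowest in the neutrophil sum and in Adam8, and mKO library 2 highest in both; the part of the neutrophil share in the Adam8 values was not tested. Of the 8 monocyte and macrophage markers, 7 had a log2 fold change above 0, and their sum was 1659, 1905 and 1250 CPM in mKO against 1406, 1098 and 1283 CPM in control.

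Adam12 encodes a sheddase of mesenchymal cells. It had 15.5, 14.6 and 14.8 CPM in mKO and 19.9, 22.4 and 17.3 CPM in control, so that all mKO libraries lay below all controls. This gave a log2 fold change of -0.41 ± 0.12 (SE), at which the adjusted p was 0.302 in edgeR's quasi-likelihood test and 0.101 in DESeq2. Adam15, found on endothelial and other cells, also did not overlap: it had 95.4, 85.7 and 96.6 CPM in mKO and 83.3, 79.6 and 78.2 CPM in control, a log2 fold change of 0.20 ± 0.11 (SE). Adam10, the main sheddase of Notch receptors, had 119, 126 and 111 CPM in mKO and 132, 102 and 102 CPM in control. Its groups overlapped, and its log2 fold change was 0.08 ± 0.14 (SE).

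Adam19, the other abundant sheddase gene, varied more between libraries of a group than between groups. It had 147, 169 and 75.3 CPM in mKO and 201, 91.6 and 131 CPM in control, with a log2 fold change of -0.11 ± 0.38 (SE). Its lowest libraries were mKO 3 and control 2, the pair named above for muscle transcript. These were also the lowest of their groups in the neutrophil sum, at 12808 and 9110 CPM. The same held for the monocyte and macrophage sum, at 1250 and 1098 CPM. The part of muscle or leukocyte content in the Adam19 values was not tested. For Adam9 the log2 fold change was -0.10 ± 0.12 (SE), while for the low-abundance Adam33 it was -0.48 ± 0.42 (SE).

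**Figure D3:**
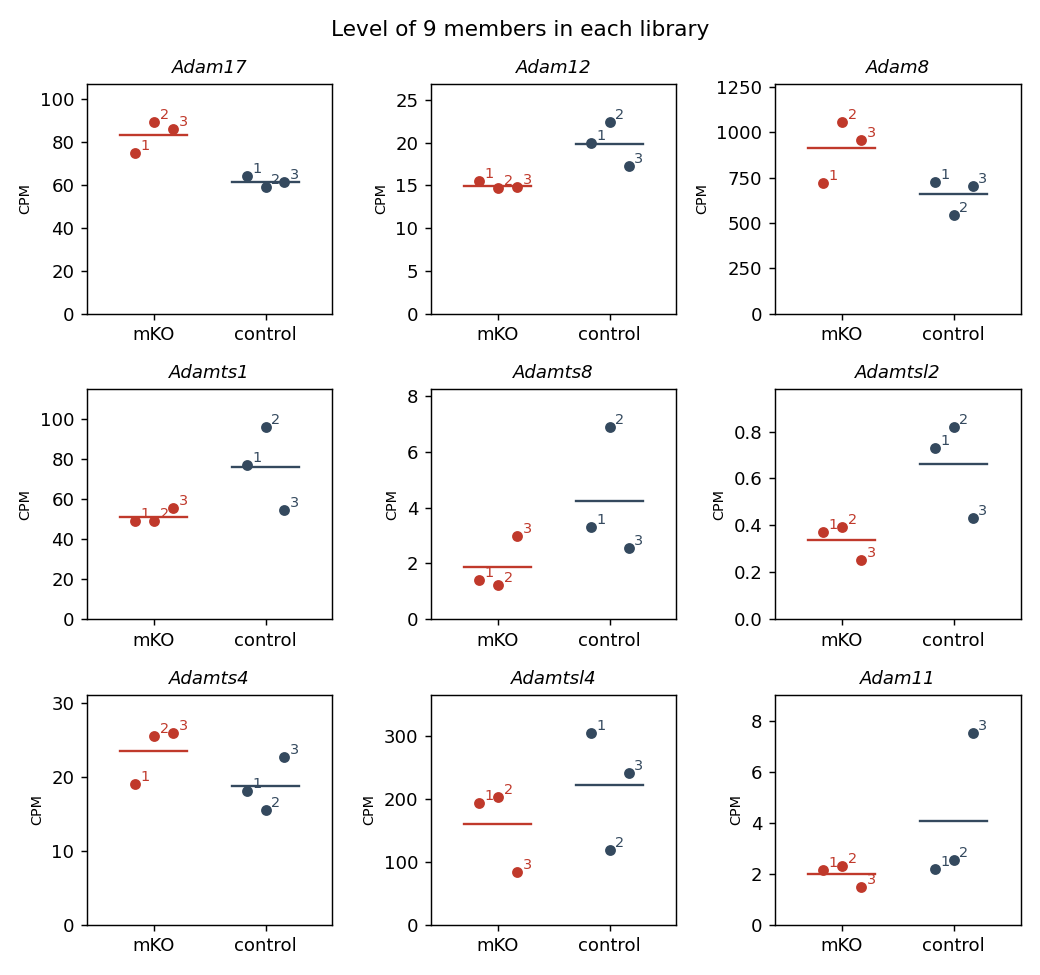
Level in CPM of 9 members in each library (points, numbered by library) with the group mean as a line, mKO left and control right. Adam17 lies at 74.7 to 89.3 CPM in mKO against 59.2 to 64.1 CPM in control, without overlap, whereas Adam8, Adamts1, Adamts8, Adamts4, Adamtsl4 and Adam11 overlap.

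The 3 ADAM genes of the adhesion type, whose products bind partners such as LGI proteins in neurons and lack the zinc site, were all below 0 with none past an unadjusted p of 0.05. Adam11 had 2.13, 2.30 and 1.49 CPM in mKO and 2.17, 2.54 and 7.53 CPM in control. Control library 3 alone was high, and without it the log2 fold change was -0.25, against -1.05 ± 0.50 (SE) with all libraries. That library also had the most transcript of 4 sympathetic neuron markers, 186 CPM against 0.650 to 128 CPM in the others; the part of neuronal transcript in the Adam11 values was not tested. Adam23 was likewise lowest in mKO library 3, at 1.02 CPM, and highest in control library 3, at 2.79 CPM, and its log2 fold change was -0.42 ± 0.31 (SE). Adam22 had a log2 fold change of -0.02 ± 0.20 (SE) in edgeR and of 0.0041 in DESeq2.

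Adam1a, a gene known for sperm proteins, was near the floor. It had 0.665, 0.766 and 0.855 CPM in mKO and 0.610, 0.609 and 0.374 CPM in control. The groups did not overlap, and this gave a log2 fold change of 0.52 ± 0.29 (SE), at which edgeR's quasi-likelihood test had an adjusted p of 0.503. The gene overlaps Mapkapk5 and Gm42878 in the annotation, so reads may be shared. For Mapkapk5 the log2 fold change was 0.33 ± 0.18 (SE), and for Gm42878 it was -0.21 ± 0.16 (SE).

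Of the 6 ADAMTS genes that cleave proteoglycans such as versican and aggrecan, 5 were below 0 and 1, Adamts4, was above, with a median of -0.35. Adamts1, an inflammation-inducible versican protease, was the most abundant. It had 49.1, 48.8 and 55.2 CPM in mKO and 77.0, 95.6 and 54.5 CPM in control. Control libraries 1 and 2 were high, and control library 3 lay inside the mKO range. This gave a log2 fold change of -0.57 ± 0.20 (SE), at which the adjusted p was 0.358 in edgeR's quasi-likelihood test and 0.155 in DESeq2. Without control library 2 it was -0.37, and without control library 3 it was -0.76.

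Adamts8 had 1.39, 1.21 and 2.97 CPM in mKO and 3.32, 6.87 and 2.55 CPM in control. Control library 2 stood highest, and mKO library 3 lay inside the control range. This gave a log2 fold change of -1.19 ± 0.49 (SE), at which edgeR's quasi-likelihood test had an adjusted p of 0.410. Without control library 2 it was -0.66, and without mKO library 3 it was -1.71. Adamts15, its neighbour on chromosome 9, had 4.98, 1.83 and 4.69 CPM in mKO and 6.03, 8.57 and 5.55 CPM in control. All mKO libraries lay below all controls, at a log2 fold change of -0.81 ± 0.38 (SE).

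Smooth muscle content also varied between libraries. Its 7 markers added up to 950, 679.7 and 1486 CPM in mKO and to 1452, 3060 and 1221 CPM in control. Control library 2 had the highest and mKO library 2 the lowest value for this sum, for Adamts8, for Adamts15 and for Adamts12; the same 2 libraries were also the extremes for Adamts1, where mKO library 2 was 48.8 CPM against 49.1 CPM in mKO library 1. All 7 smooth muscle markers had a log2 fold change below 0, with a median of -0.80, and none had an adjusted p under 0.05 by edgeR or DESeq2. The part of smooth muscle content in these values was not tested.

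Adamts4, an aggrecan and versican protease induced by inflammatory cytokines, had 19.0, 25.5 and 25.9 CPM in mKO and 18.0, 15.5 and 22.7 CPM in control. The groups overlapped, and the log2 fold change was 0.32 ± 0.18 (SE). Adamts5, which lies beside Adamts1 on chromosome 16 and is a major aggrecan protease of cartilage, had 18.2, 16.4 and 19.5 CPM in mKO and 17.1, 20.5 and 17.2 CPM in control. Its log2 fold change was -0.01 ± 0.12 (SE) and its direction depended on the normalization, with 0.0087 under RLE factors. Adamts9, a versican protease of vascular cells, had 22.6, 23.6 and 23.8 CPM in mKO and 24.0, 28.6 and 24.5 CPM in control. Its groups did not overlap but lay close, at a log2 fold change of -0.14 ± 0.10 (SE). The neighbouring genes Adamts1 and Adamts5 thus had log2 fold changes of -0.57 and -0.01, a difference that was not tested.

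**Figure D4:**
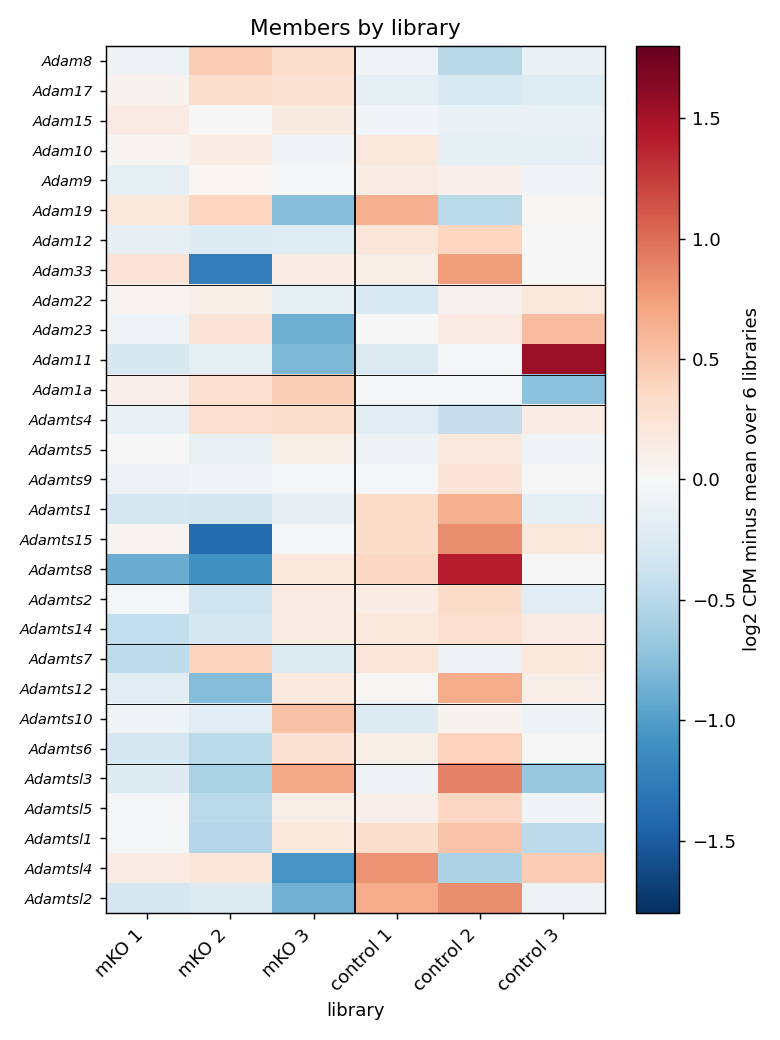
Log2 CPM of each member minus its mean over the 6 libraries, by library, with mKO left of the line and control right, and role classes separated by horizontal lines. Adam19 and Adamtsl4 are low in mKO library 3 and control library 2, Adam11 is high in control library 3, and Adamts8 is high in control library 2.

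No gene of the procollagen N-proteinase class or of the class that cleaves cartilage oligomeric matrix protein had an unadjusted p under 0.05. The procollagen N-proteinase genes, whose products trim the amino end of fibrillar procollagens, were both below 0. Adamts2 had 31.6, 25.4 and 35.8 CPM in mKO and 35.5, 40.8 and 28.1 CPM in control, with a log2 fold change of -0.17 ± 0.18 (SE). Adamts14 had 1.17, 1.28 and 1.74 CPM in mKO and 1.82, 1.95 and 1.77 CPM in control, without overlap, and a log2 fold change of -0.40 ± 0.22 (SE). Adamts12, which like Adamts7 encodes a protease of cartilage oligomeric matrix protein (COMP), had 6.68, 4.46 and 8.63 CPM in mKO and 7.79, 12.1 and 8.28 CPM in control. Its log2 fold change was -0.51 ± 0.27 (SE), and that of Adamts7 was -0.17 ± 0.24 (SE). For Adamts12 it was -0.29 without control library 2, -0.30 without mKO library 2 and -0.76 without mKO library 3.

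The fibrillin-associated Adamts10 had 16.8, 15.4 and 25.6 CPM in mKO and 15.1, 18.6 and 16.6 CPM in control. Library 3 of mKO was high and the log2 fold change was 0.20 ± 0.20 (SE); without that library it was -0.059. Adamts6, its closest relative here at the zinc site, had a log2 fold change of -0.32 ± 0.22 (SE).

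All 5 ADAMTS-like genes were below 0, with a median log2 fold change of -0.27. Adamtsl2, which binds fibrillin and a TGF-beta binding protein, had 0.370, 0.393 and 0.252 CPM in mKO and 0.729, 0.817 and 0.432 CPM in control. Every mKO library lay below every control, on 43 to 149 reads per library. This gave a log2 fold change of -0.97 ± 0.34 (SE), at which the adjusted p was 0.360 in edgeR's quasi-likelihood test and 0.256 in DESeq2.

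Adamtsl4 had 193, 203 and 83.5 CPM in mKO and 305, 119 and 241 CPM in control. Its groups overlapped, and mKO library 3 and control library 2 were again the lowest of their groups, as for Adam19. The neutrophil sum and the monocyte and macrophage sum had the same lowest libraries, and their part in the Adamtsl4 values was not tested. The log2 fold change was -0.47 ± 0.45 (SE), with -0.16 without mKO library 3, -0.17 without control library 1 and -0.77 without control library 2. Its highest library held 2.43 times its lowest in mKO and 2.57 times in control. Adamtsl1, Adamtsl3 and Adamtsl5 had log2 fold changes of -0.27, -0.13 and -0.25, each with overlapping groups.

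By the zinc site, 7 members with the site were above 0 and 14 below, with a median log2 fold change of -0.14. The 8 members without it are the adhesion type and ADAMTS-like genes already described. By edgeR all 8 were below 0, against 54.1% of all genes, with a median of -0.35. Among them Adam22 lay near 0, at -0.02 ± 0.20 (SE) in edgeR and 0.0041 in DESeq2. Of these 8, Adamtsl2 alone had an unadjusted p under 0.05 by edgeR. The difference between both sets was not tested.

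ADAM activity also depends on partners: TIMP inhibitors, the iRhom proteins that carry ADAM17 to the surface, the tetraspanins that carry ADAM10, and proprotein convertases. Of 18 such regulator genes tested, 0 passed by edgeR, and at an unadjusted p under 0.05 there were 1 higher and 3 lower in mKO, against 5.6% and 6.26% of all genes. DESeq2 called 1 higher and 1 lower, against 1.47% and 1.33% of all genes. Timp3, an inhibitor of ADAM17 and of several ADAMTS proteases, had 52.7, 59.1 and 68.1 CPM in mKO and 104, 132 and 127 CPM in control. Every mKO library lay well below every control, and this gave a log2 fold change of -1.01 ± 0.15 (SE), at which edgeR's quasi-likelihood test had an adjusted p of 0.134, while DESeq2 gave an adjusted p of 2.73e-07. The tetraspanin gene Tspan33 had 4.80, 5.35 and 3.28 CPM in mKO and 2.68, 2.45 and 1.98 CPM in control, without overlap and with a log2 fold change of 0.92 ± 0.23 (SE). Its adjusted p was 0.246 in edgeR's quasi-likelihood test and 0.0134 in DESeq2, so that Timp3 and Tspan33 were the genes DESeq2 called. Tspan15, another ADAM10 tetraspanin, had -0.50 ± 0.20 (SE), and Rhbdf1, which encodes iRhom1, had -0.30 ± 0.13 (SE). Rhbdf2, the iRhom2 gene, and Timp4, a TIMP inhibitor gene, are added here after their values were seen. Rhbdf2 had 110, 158 and 136 CPM in mKO and 115, 85.6 and 106 CPM in control. Its groups overlapped, and its log2 fold change was 0.40 ± 0.18 (SE). For Timp4 the levels were 4.47, 3.34 and 9.16 CPM in mKO and 11.2, 22.3 and 7.82 CPM in control. They also overlapped, at a log2 fold change of -1.28 ± 0.54 (SE).

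Of 35 substrates of ADAM10 and ADAM17 tested, 14 were above 0 and 21 below, with a median log2 fold change of -0.16. By edgeR 0 passed, and at an unadjusted p under 0.05 there were 2 higher, a share close to the 5.6% of all genes, and 6 lower, against 6.26% of all genes. Tnf, the first known ADAM17 substrate, had 38.3, 27.5 and 19.3 CPM in mKO and 12.8, 12.5 and 16.6 CPM in control. Its groups stood apart in all libraries, at a log2 fold change of 1.02 ± 0.25 (SE). The phagocyte receptor gene Mertk had 13.3, 10.6 and 13.0 CPM in mKO and 18.1, 16.5 and 19.8 CPM in control, also without overlap, and a log2 fold change of -0.56 ± 0.13 (SE). Hbegf, an EGF receptor ligand, had -0.53 ± 0.15 (SE), and Notch4, an endothelial Notch receptor, -0.37 ± 0.12 (SE). DESeq2 called Tnf as higher and Mertk as lower, against 1.47% and 1.33% of all genes. These are transcript levels and hold no measure of cleavage.

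**Figure D5:**
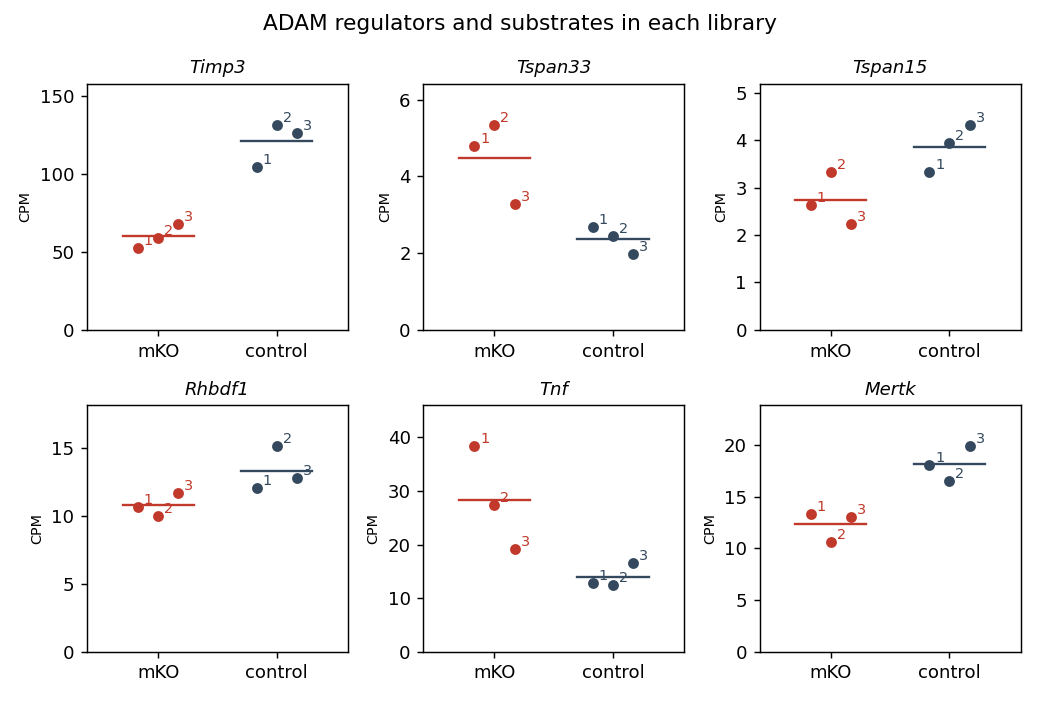
Level in CPM of 4 ADAM regulators (Timp3, Tspan33, Tspan15, Rhbdf1) and 2 substrates (Tnf, Mertk) in each library, points numbered by library with the group mean as a line, mKO left and control right. Timp3 lies at 52.7 to 68.1 CPM in mKO against 104 to 132 CPM in control, and Tspan15 alone of the 6 overlaps.

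Of 19 matrix substrates and microfibril partners of the ADAMTS genes tested, 15 lay below 0, against 54.1% of all genes, with a median log2 fold change of -0.22. None passed by edgeR. At an unadjusted p under 0.05, 1 was higher and 4 were lower, against 5.6% and 6.26% of all genes, and DESeq2 called 2 as lower, Sdc4 and Lox, against 1.33%. Sdc4, the cell surface proteoglycan syndecan 4, had 83.7, 72.4 and 65.4 CPM in mKO and 99.5, 114 and 120 CPM in control, and a log2 fold change of -0.59 ± 0.14 (SE). Lox, the collagen and elastin crosslinking enzyme, had -0.62 ± 0.17 (SE), Ltbp1, which anchors latent TGF-beta to microfibrils, -0.79 ± 0.24 (SE), and Nid1, a basement membrane protein, -0.43 ± 0.14 (SE). The 2 enzymes that add O-linked fucose and glucose to thrombospondin repeats, Pofut2 and B3glct, had -0.03 ± 0.11 (SE) and -0.29 ± 0.15 (SE). Endothelial transcript also stood apart between the groups. The 8 markers added up to 501, 448 and 545 CPM in mKO and to 613, 670 and 576 CPM in control, and the log2 fold change of each lay below 0. By edgeR 0 of them passed, while DESeq2 called 2 as lower, against 1.33% of all genes. All mKO libraries lay below all controls for 4 of the 8, against 9.39% of all genes. The part of endothelial content in the Timp3, Notch4 and matrix gene values was not tested.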

How the data were processed

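Oligo(dT)-selected RNA was sequenced, and each library's deposited table holds unnormalized counts of reads by gene. The submitters' processing notes name GRCm39 as the build and, among tools, featureCounts 2.0.1, HISAT2 2.1.0, Trim Galore 0.4.0 and FastQC 0.11.8. Annotation release, strand setting, treatment of multimapping reads and the rule that shortened the gene list: not given in the sources used here. All 6 tables list the same 16533 genes, and no pair of libraries within a group agreed within sampling noise. The p-values measure the spread between pools.

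Counts were fitted with edgeR 4.0.16 in R 4.3.3 (quasi-likelihood F-test, TMM, robust dispersion, default low count filter, 16523 genes) and p-values adjusted by Benjamini-Hochberg at 0.05 over all genes; SE is that implied by the F-test. Alternatives were DESeq2 1.42.0, limma voom 3.58.1, RLE and upper-quartile factors, other filters, a replicate block, leaving out haemoglobin, immunoglobulin and mitochondrial genes, and leaving out each library; a fit without 2 libraries was added after seeing the data. Each tool was first tested on simulated counts with known changes, where a larger share of DESeq2's calls than of edgeR's was false. Those counts were drawn once, with dispersions estimated by edgeR and no differences in cell content between libraries. They cannot rank the tools on the real libraries. Exon lengths came from GENCODE M21 (GRCm38), matched to 16492 genes by identifier, and bear on levels per kb alone.

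Members and lists were chosen with earlier results of these data known. Values per library are given for members with an unadjusted p under 0.05, the highest member of each role class and 8 fixed genes (Adam8, Adam10, Adam17, Adamts1, Adamts4, Adamts5, Adamts9 and Adamts13, the last with no row), and for the regulator and substrate lists for up to 4 genes with the smallest p; Adam15, Adam19, Adam23, Adamts14 and Adamts15 were added after their values were seen. Marker lists for 15 cell types were used for the library checks; none of the 4 mesothelial markers had a row.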

Additional observations from a re-analysis of the deposited data

How the results depend on the processing

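Over the alternatives, the family's median log2 fold change stayed below 0 and within the spread between libraries of its value of -0.17; leaving out each library gave -0.25 to -0.12. DESeq2 called 462 genes and 1 member, Adam17, and gave 3 members higher in place of 1 and 6 lower in place of 4 at an unadjusted p under 0.05; limma voom gave 1 higher and 5 lower. The higher count was 2 with upper-quartile factors and with at least 10 CPM in at least 3 libraries, where 14 members were tested and 2 in place of 4 were lower. The replicate numbers did not pair the libraries (correlations of deviations -0.12, -0.32 and -0.33); with the replicate block 2 members were lower and 0 were called. Leaving out each library, 0 to 7 genes and 0 members were called, 1 to 3 members were higher and 1 to 6 were lower. The 7 genes came without control library 1, with 4 without mKO library 3 and 2 without control library 3. The 6 lower came without mKO library 3, the 1 lower without control library 2, the 2 lower without control library 1 or mKO library 1, and the 3 higher without mKO library 1, with 2 higher without control library 3. Without mKO library 3 and control library 2 together, 3 genes and 0 members were called, and 0 members were higher and 1 was lower. The causes were not tested. Of 16 named members, 14 kept their direction in every alternative that tested them. Adam17 ranged from 0.38 to 0.51, and its call by DESeq2 was the single member call. Adamts5 turned above 0 with DESeq2 (0.0087), RLE factors (0.0087) and without both libraries (0.016), and ranged from -0.075 to 0.077 on leaving out each library. In the same way Adamts10 ranged from -0.059 to 0.34, Adamts2 from -0.30 to -0.038, Adamts9 from -0.18 to -0.053, Adam10 from 0.017 to 0.21, Adamts4 from 0.20 to 0.48 and Adam1a from 0.32 to 0.63. With 3 pools per group the precision is low, and members below 1 CPM, such as Adamtsl2, rest on few reads.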
